A study of Mus musculus with 15 samples.

Results

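This account covers 40 genes of glutamate receptors, auxiliary subunits and postsynaptic scaffolds in mouse thalamus, out of the 25080 genes listed for each library. They were chosen by name and function, without using their values here: 4 AMPA receptor subunits (Gria1 to Gria4), 6 NMDA receptor subunits (Grin1, Grin2a to Grin2d, Grin3a), 5 kainate receptor subunits (Grik1 to Grik5), 6 metabotropic glutamate receptors (Grm2, Grm3, Grm4, Grm5, Grm7, Grm8), 6 TARP auxiliary subunits (Cacng2, Cacng3, Cacng4, Cacng5, Cacng7, Cacng8), 4 cornichon and Neto auxiliary subunits (Cnih2, Cnih3, Neto1, Neto2), 4 MAGUK scaffolds (Dlg1 to Dlg4) and 5 Shank and Homer scaffolds (Shank1 to Shank3, Homer2, Homer3). All 40 were measured above the low-value filter, which kept 13471 genes.

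Glutamate released onto a thalamic neuron opens AMPA receptors for fast transmission and, when the membrane is depolarised, calcium-permeable NMDA receptors, while kainate and metabotropic receptors tune release and excitability. TARP and cornichon proteins escort AMPA receptors to the membrane and change their gating, and Neto proteins do so for kainate receptors. MAGUK proteins such as PSD-95 hold the receptors in the postsynaptic density, and Shank and Homer proteins form the layer beneath, linking that density to metabotropic receptors and actin. Repeated cocaine is known for changing the AMPA and NMDA receptor content of synapses in reward circuits.

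Thalamus was dissected from mice aged 2 to 4 months that were given 3 days of saline injections and then 5 days of either saline or cocaine (20 mg/kg, intraperitoneal). The mice were either controls, called Maged1 WT in the sample titles and Maged1 Loxp in the genotype tags, or Maged1 cKO, in which floxed Maged1 is deleted by Cre under the vGluT2 (Vglut2) promoter, that is, in glutamatergic neurons and not in other thalamic cells. One protocol writes both genotypes with the Cre, so whether the controls carry it is not settled by the labels. The study asked whether thalamic Maged1, which encodes a MAGE-family adaptor protein, is needed for the transcriptional response to repeated cocaine. Each group held 4 libraries, 1 per sample, except the cKO mice given cocaine with 2, and a further cKO cocaine sample was not analysed here.

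Maged1 itself went against the labels of the cocaine libraries. Control saline libraries measured 152.9, 167.3, 150.3 and 151.6 scaled TPM (a length-corrected share of all transcripts, rescaled between libraries), and cKO saline measured 78.2, 76.8, 68.8 and 64.7. The libraries labelled control cocaine were at 58.2, 87.3, 76.8 and 71.3, as low as the cKO saline libraries. Those labelled cKO cocaine reached 152.1 and 172.8. The genotype of the cocaine libraries is therefore given only as their label throughout. If these labels are exchanged, each contrast of cocaine against saline within a label also sets cKO against control. Cocaine and genotype could then not be told apart in the rises and falls given under either label. The mean of both cocaine contrasts keeps its value if the cocaine groups exchange their genotype labels, and it is given as well. For 4 saline libraries (control replicates 3 and 4, cKO replicates 1 and 2) the genotype tag names the other genotype than the title, while Maged1 followed the titles.

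The TPM do not record sequencing depth, so the counting error behind each value is unknown. The scaling factors were 1.07 to 1.21 in the saline libraries and 0.813 to 0.949 in the cocaine libraries, so treatment and scaling moved together. Without any scaling the median of all tested genes was lower after cocaine by a log2 value of -0.335 under the control label and -0.346 under the cKO label, and all changes given here are relative to that shift. Thalamic markers were present throughout (summed level of the 6 genes Slc17a6, Tcf7l2, Lef1, Prkcd, Rora and Calb2, 418.9 to 618.2 scaled TPM). Of markers of neighbouring tissue, the choroid plexus and ependyma sum reached 1447 in control saline replicate 1, the cortex and hippocampus sum was highest in control cocaine replicate 1 (97.1) and cKO saline replicate 4 (110.9), and the hypothalamus sum was 132.8 to 464.8 in control saline against 2.52 to 147.3 in the other groups.

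In control saline thalamus the scaffolds and the obligatory NMDA subunit led the list. Dlg4, which encodes PSD-95, was highest at 102.6 ± 0.980 scaled TPM (SD, n = 4), followed by Shank1 (84.9 ± 4.16), Grin1 (73.6 ± 1.18), Cnih2 (66.4 ± 3.89) and Shank3 (55.4 ± 5.56). The ranges of these neighbours did not overlap, whereas Shank3 and the next gene, Gria1 (51.0 ± 2.82), overlapped. Dlg4 stood at percentile 97.5 of the tested genes. TPM are corrected for transcript length, which a comparison of levels between genes needs. The order was not corrected here for the GC content of the transcripts, described below. Cacng7 (40.1 ± 1.09) was the highest TARP, Grik5 (27.6 ± 1.34) the highest kainate subunit and Grm4 (25.4 ± 2.20) the highest metabotropic receptor. From Grin2b at rank 9 to Grik1 at rank 36 nearly all neighbours in the order overlapped, the exception being the step from Grm4 to Cacng4 (21.0 ± 1.06). The lowest were Grm8 (3.58 ± 0.538), Homer3 (2.71 ± 0.0892) and Neto1 (2.65 ± 0.406).

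**Figure D1:**
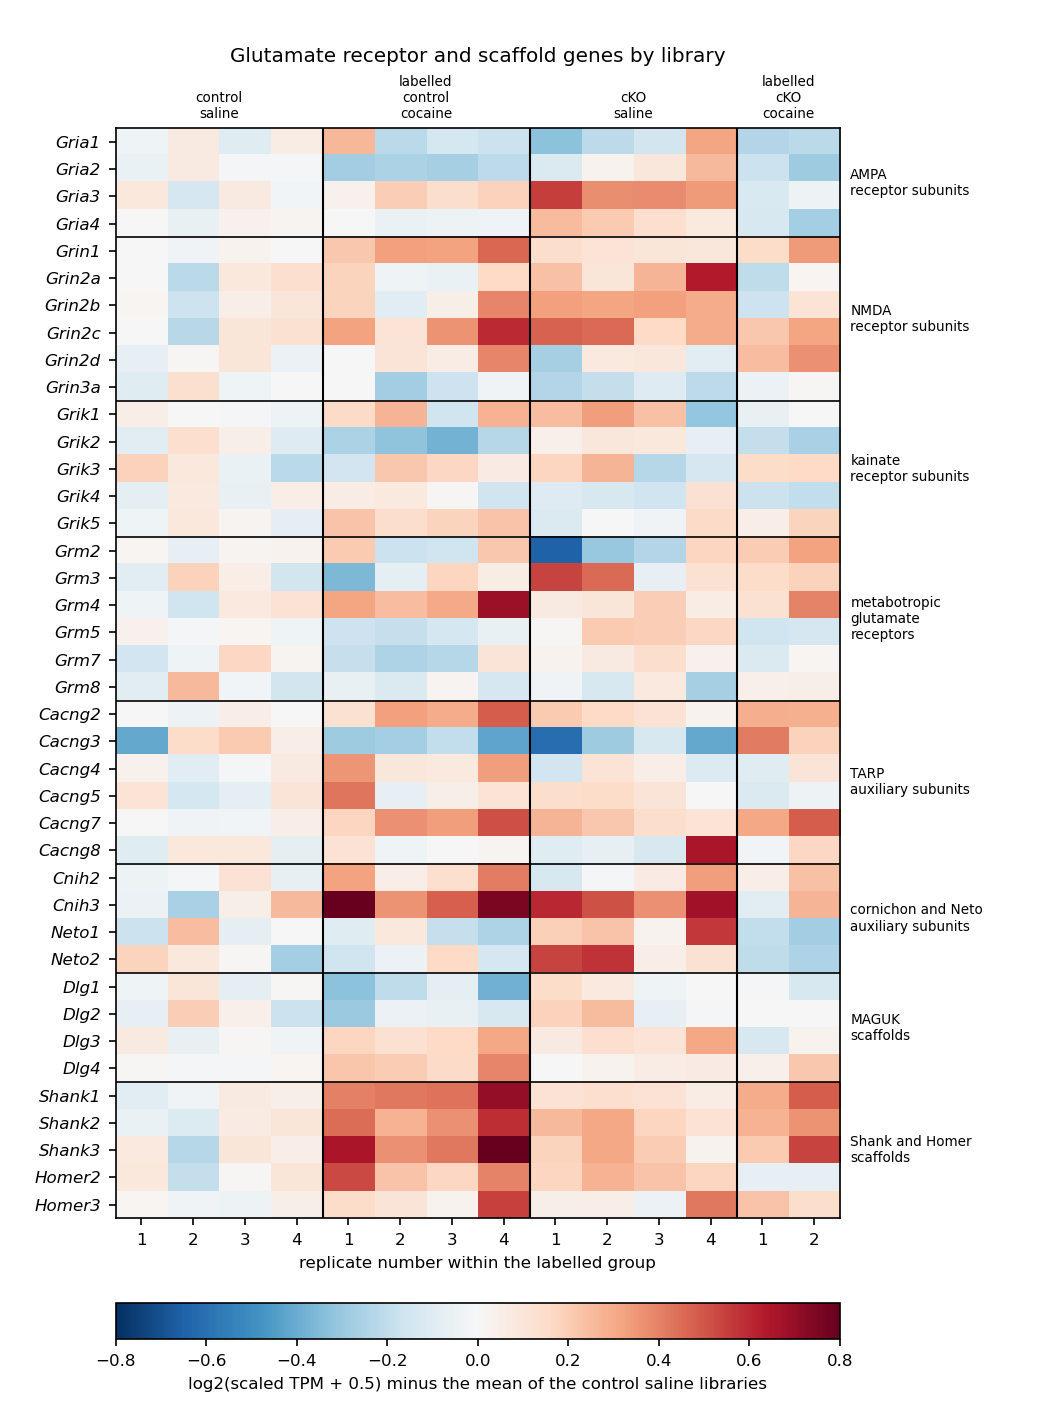
Level of the 40 genes in each of the 14 libraries, as log2(scaled TPM + 0.5) minus the mean of the 4 control saline libraries (red higher, blue lower), with genes grouped by role and libraries by labelled group. The Shank rows are red in all 4 libraries labelled control cocaine, and the Gria2 and Grik2 rows are blue in all 6 cocaine libraries.

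Cocaine against saline under the control label showed a rise of 6 of 9 scaffold genes and of the obligatory NMDA subunit Grin1, beside a fall of Gria2, Grik2 and the scaffold Dlg1. Of the 40 genes, 13 were higher and 3 lower at a Benjamini-Hochberg adjusted p under 0.05 (limma, adjusted over all 13471 genes). Among all genes tested, 13.3% were higher and 10.3% lower by the same rule, so the share of members that rose was above the background and the share that fell was not. The median log2 fold change was 0.13 over the 40 genes and -0.0023 over all genes, and 21 members had an unadjusted p under 0.05. Without scaling between libraries 0 members were higher and 22 lower, where 71.5% of all genes passed in either direction, with the 3 Shank genes still positive and Grin1, Dlg4, Cacng2, Cacng7, Homer2, Grik5, Grin2c and Dlg3 negative. The changes were small: 2 members (Cnih3 and Shank3) passed when a log2 fold change of at least 0.5 was also required, where 3.09% of all genes passed. In bulk tissue a smaller number of cells of a type and less RNA per cell cannot be told apart.

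The 3 Shank genes, which encode the master scaffolds of the postsynaptic density, rose together under the control label. Shank1 (chr7:44310253-44360572, GRCm38) measured 79.8, 83.3, 89.0 and 87.5 scaled TPM after saline and 112.4, 113.6, 114.8 and 138.7 after cocaine. The groups did not overlap, and the difference was a log2 fold change of 0.49 ± 0.067 (SE), or 40.5% (adjusted p = 0.00045). Shank2 (chr7:144001928-144424494) measured 18.2, 17.5, 19.8 and 20.2 after saline and 25.9, 23.0, 24.4 and 28.8 after cocaine (log2 fold change 0.42 ± 0.070, adjusted p = 0.0014). Shank3 (chr15:89499623-89560261), whose loss causes autism-related behaviour in mice, measured 58.3, 47.1, 58.9 and 57.1 after saline and 86.99, 71.2, 74.0 and 99.3 after cocaine (0.57 ± 0.11, adjusted p = 0.0037). Homer2, an adaptor that binds Shank and group I metabotropic receptors, rose by 0.33 ± 0.080 (adjusted p = 0.010), from 8.68, 7.09, 8.22 and 8.79 to 12.02, 9.67, 9.22 and 10.9 scaled TPM. Homer3 missed the threshold (0.21 ± 0.12, adjusted p = 0.21).

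Among the MAGUK scaffolds the members moved in opposite directions. Dlg4 (chr11:70016942-70047522) measured 103.2, 102.2, 101.5 and 103.7 scaled TPM in control saline and 119.8, 118.4, 114.4 and 134.5 in the libraries labelled control cocaine, without overlap. Its log2 fold change was 0.24 ± 0.050 (adjusted p = 0.0048). Dlg3, encoding SAP102, rose by 0.19 ± 0.060 (adjusted p = 0.038), whereas Dlg1, encoding SAP97, fell (-0.25 ± 0.068, adjusted p = 0.020) and Dlg2, encoding PSD-93, gave -0.13 ± 0.089 (adjusted p = 0.30). The Dlg3 call was lost without any one of 5 libraries (control saline replicates 2, 3 and 4, control cocaine replicates 3 and 4), and the Dlg1 call without control saline replicate 2 or control cocaine replicate 4.

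Of the NMDA receptor subunits, Grin1 and Grin2c rose under the control label. Grin1 (chr2:25291181-25319187), the subunit every NMDA receptor needs, measured 73.5, 72.1, 75.01 and 73.6 scaled TPM after saline and 85.5, 92.4, 91.9 and 101.4 after cocaine. Every cocaine library was above every saline library, a log2 fold change of 0.33 ± 0.051 or 25.8% (adjusted p = 0.00098). Grin2c, a subunit of receptors with weak magnesium block, rose by 0.35 ± 0.10 (adjusted p = 0.030), but its ranges overlapped (10.1 to 12.9 against 12.8 to 18.1) and the call was lost without any one of 4 libraries (control saline replicates 1 and 2, control cocaine replicates 3 and 4). The 4 other NMDA subunits lay between -0.12 (Grin3a) and 0.14 (Grin2d) and did not pass.

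AMPA and kainate receptor subunits showed both directions. Gria2 (chr3:80681450-80802835), the edited subunit that makes AMPA receptors calcium-impermeable, measured 35.7, 38.9, 36.8 and 36.7 scaled TPM in control saline and 30.5, 31.0, 30.7 and 31.97 in the libraries labelled control cocaine. It fell by 15.9% (log2 fold change -0.25 ± 0.064, adjusted p = 0.014), without overlap. Gria1, Gria3 and Gria4 gave -0.07 ± 0.13, 0.14 ± 0.061 and -0.03 ± 0.045 and did not pass. Gria1, the most abundant AMPA subunit, measured 49.7, 53.6, 47.7 and 53.0 after saline and 61.5, 43.9, 46.2 and 45.1 after cocaine. Its highest values, 61.5 in control cocaine replicate 1 and 63.6 in cKO saline replicate 4, were in the 2 libraries with the highest cortex and hippocampus marker sums. With both of them left out, an alternative added after seeing the data, Gria1 was among the members that fell. Grik2 (chr10:49094833-49788766), a pore-forming kainate subunit, measured 6.86, 8.07, 7.58 and 6.78 after saline and 6.04, 5.75, 5.51 and 6.18 after cocaine (-0.29 ± 0.060, adjusted p = 0.0045). Its high-affinity partner Grik5 rose from 26.9, 29.3, 28.1 and 26.2 to 32.5, 30.4, 31.3 and 32.4 (0.19 ± 0.057, adjusted p = 0.026), a call lost without control saline replicate 1 or 4 or control cocaine replicate 4.

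Metabotropic receptors mostly stayed within the spread. Grm4, a presynaptic group III receptor, measured 24.8, 22.6, 26.8 and 27.5 scaled TPM in control saline and 31.7, 30.2, 31.4 and 41.3 in the libraries labelled control cocaine (0.39 ± 0.096, adjusted p = 0.011). Grm5, a group I receptor coupled to calcium release, was 17.0, 16.3, 16.7 and 16.2 after saline and 14.7, 14.5, 14.9 and 15.9 after cocaine. These values did not overlap, but the difference just missed the threshold (-0.14 ± 0.047, adjusted p = 0.052). The 4 other receptors ranged from -0.14 (Grm7) to 0.02 (Grm2).

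Auxiliary subunits of AMPA receptors contributed 3 rises. Cacng7 (chr7:3332955-3368221), a TARP of the gamma-7 type, measured 40.1, 39.3, 39.5 and 41.7 scaled TPM after saline and 45.2, 52.0, 50.8 and 57.7 after cocaine (0.35 ± 0.066, adjusted p = 0.0030). Cacng2, encoding stargazin, rose by 0.31 ± 0.064 (adjusted p = 0.0050), from 14.6 to 15.6 to 16.4 to 21.3. Cnih3 (chr1:181352628-181460641), a cornichon that slows AMPA receptor gating, had the largest log2 fold change of the 40 genes (0.62 ± 0.13, adjusted p = 0.0058), from 9.22, 7.90, 9.91 and 11.5 to 18.1, 12.4, 13.5 and 16.5. In the mean of both cocaine contrasts, which does not depend on the cocaine labels, Cnih3 was at 0.087 and did not pass. The more abundant Cnih2 measured 64.6, 65.8, 72.0 and 63.3 after saline and 83.0, 68.9, 72.9 and 88.1 after cocaine, and did not pass (0.23 ± 0.098, adjusted p = 0.11). Neto1 and Neto2 gave -0.11 ± 0.12 and -0.05 ± 0.13. Across all 40 genes, 13 lay above and 3 (Gria2, Grik2, Grm5) below without overlap between the groups, beside 13.4% and 11.6% of all genes.

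**Figure D2:**
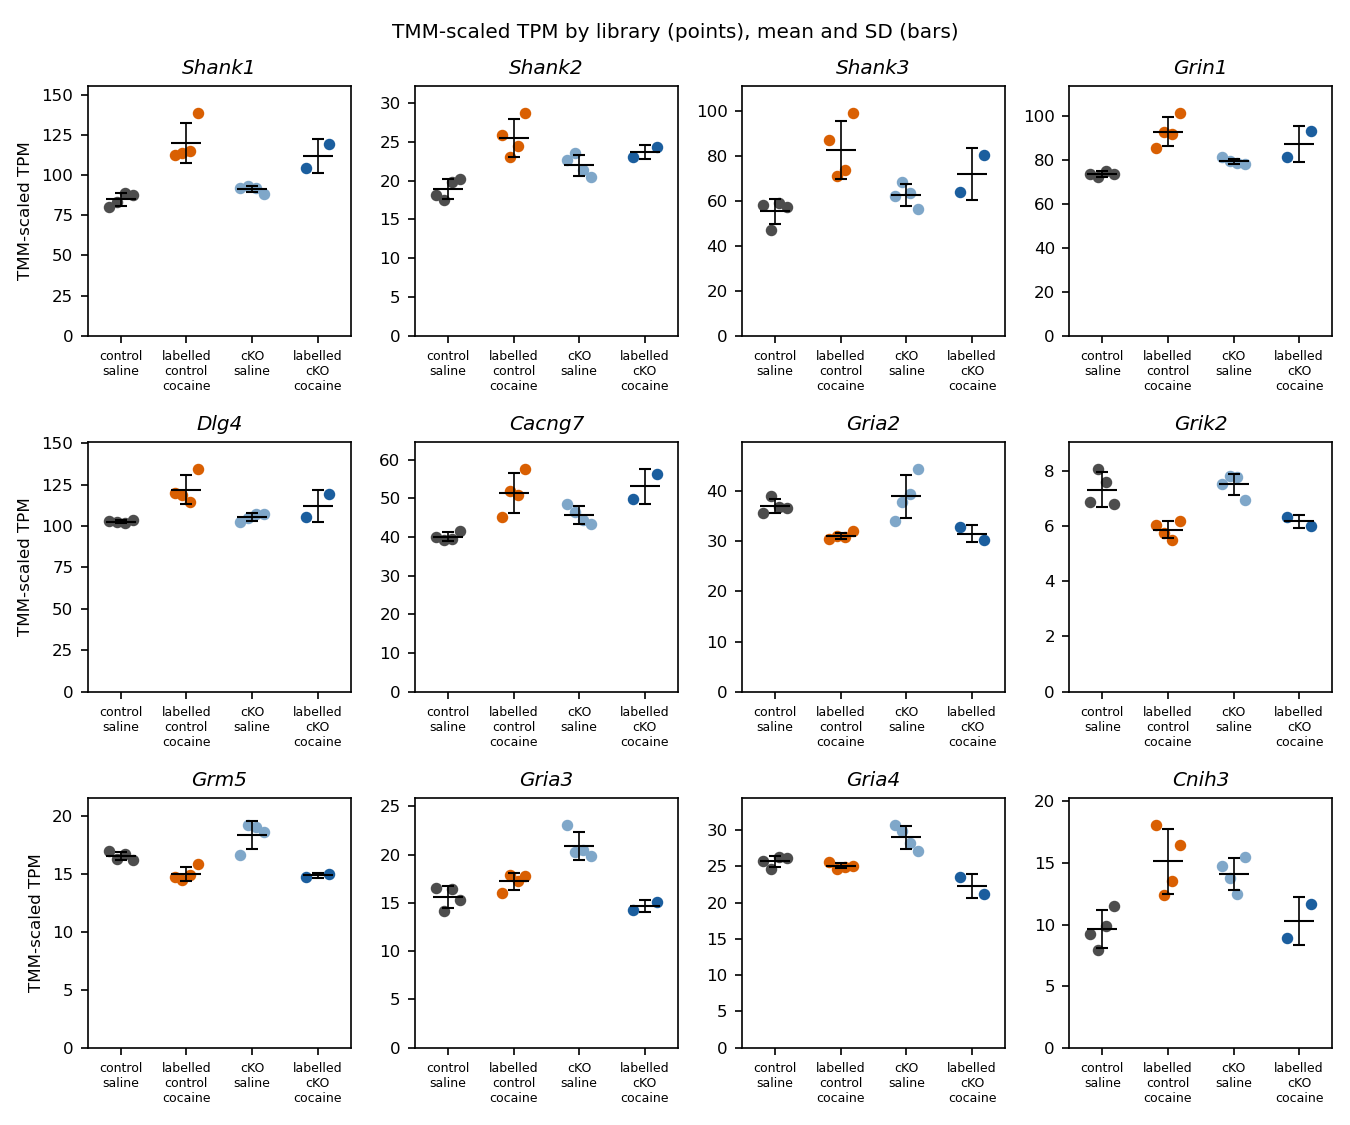
Scaled TPM of 12 genes in each library (points) with the mean and SD of the labelled group (bars), each axis starting at 0. The 4 control cocaine points of Shank1 (112.4 to 138.7) lie above all saline points, and the 4 cKO saline points of Gria3 (19.9 to 23.1) lie above those of every other group.

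Cell type markers moved with this contrast. Of 6 thalamic markers, Prkcd and Lef1 rose and Calb2 fell (log2 fold changes of all 6 from -0.69 to 0.73), and of 6 astrocyte markers Aldh1l1 rose and Slc1a3 fell. Of 5 pan-neuronal markers, 3 rose (Rbfox3, Syt1 and Snap25), with sums of 894.7 to 1011 scaled TPM in control saline and 995.9 to 1217 in the libraries labelled control cocaine. Oligodendrocyte sums (5 genes, of which Mbp rose) were 1232 to 1464 and 1335 to 2047, and 4 of 6 hypothalamic markers (Oxt, Avp, Gal and Trh) fell. In no group was a marker of these 3 lists at 0 in every library. The part of tissue composition in the changes of receptor and scaffold genes was not tested.

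Shares within a subunit family do not depend on the scaling between libraries, and they are described without a test. They are not corrected for the GC content of the transcripts, described below. It differs within a family: 36.8% for Gria2 against 48.5% for Gria1, and 37.9% for Grik2 against 61.7% for Grik5. Gria2 was 28.0 to 29.6% of the Gria1 to Gria4 total in control saline and 22.8 to 26.7% in the libraries labelled control cocaine, without overlap, whereas under the cKO label it was 26.5 to 29.4% after saline and 27.4 and 28.8% after cocaine. Grik2 was 13.2 to 14.6% of the kainate total in control saline and 10.2 to 10.9% with cocaine, and 12.97 to 15.1% against 11.0 and 12.2% under the cKO label, so it was lower in the cocaine libraries of both labels. Grin2c was 17.2 to 18.7% of the Grin2 total in control saline and 19.6 to 22.0% with cocaine under that label. Grin2d was 14.2 to 18.2% of the Grin2 total in cKO saline against 23.1 and 24.3% with cocaine under that label. The MAGUK and Shank families were added after their values were seen. Dlg4 was 65.3 to 68.1% of the Dlg1 to Dlg4 total in control saline and 68.8 to 72.6% with cocaine, while Shank1 kept a like share of the Shank total (51.1 to 56.3% and 49.9 to 54.7%), the total being 147.9 to 167.8 and 207.8 to 266.8 scaled TPM.

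**Figure D3:**
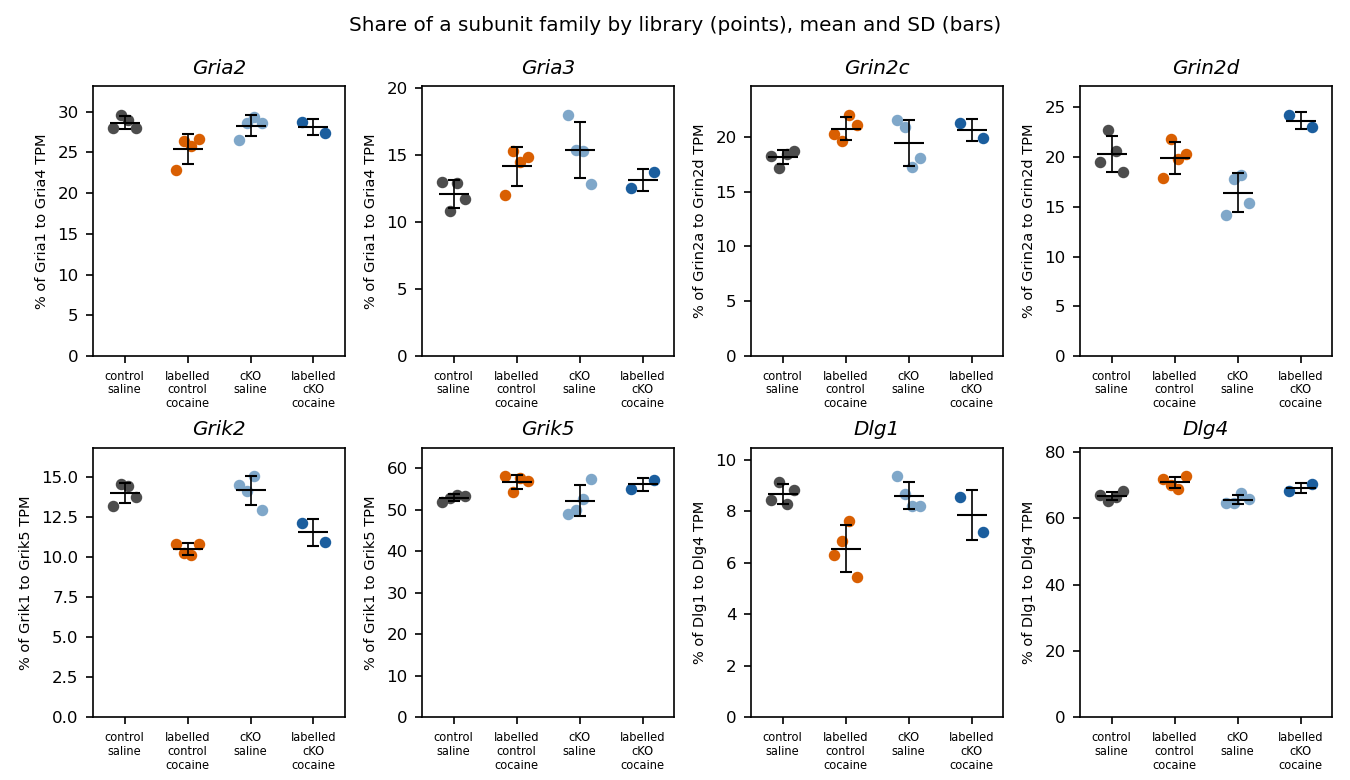
Share of a subunit in its family's summed TPM, in percent, for each library (points) with the mean and SD of the labelled group (bars). Grik2 takes 10.2 to 12.2% of the kainate total in the 6 cocaine libraries and 12.97 to 15.1% in the 8 saline libraries.

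The fold changes followed the GC content of the transcripts. Over the 40 genes, GC content of the longest transcript and the log2 fold change under the control label had a Pearson correlation of 0.595 (Spearman 0.61), against 0.194 (0.339) over the 13186 tested genes with a GC value. The points share the libraries and their base composition, so these values are descriptions. For the mean of both cocaine contrasts the values over the 40 genes were 0.835 and 0.82. The 13 genes that rose had a median GC content of 58.1% (44.4 to 62.4%) and the 3 that fell 37.9% (36.8 to 43.8%). With the trends on GC content and length removed from each library, 10 members were higher and 0 lower under the control label, where 18.3% of all genes passed in either direction. Shank1 (0.37), Shank2 (0.34), Shank3 (0.43), Homer2 (0.41), Dlg4 (0.26), Grin1 (0.23), Cacng2 (0.25), Cacng7 (0.28) and Cnih3 (0.57) kept their calls, and Gria3 (0.26) gained one. The calls of Gria2, Grik2, Dlg1, Grin2c, Grik5, Grm4 and Dlg3 were lost.

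**Figure D4:**
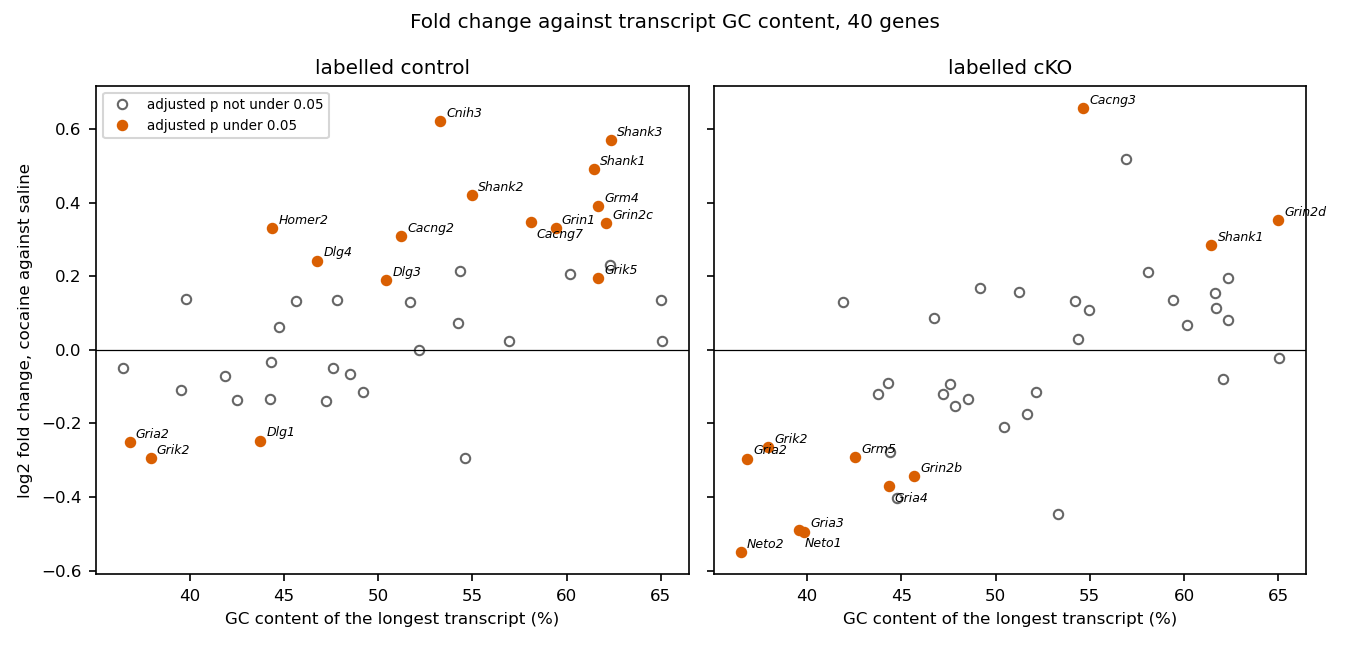
Log2 fold change of cocaine against saline under each genotype label, plotted against the GC content of the longest transcript (percent) for the 40 genes, with filled points for an adjusted p under 0.05. Under the control label the genes that passed upward sit at 44.4 to 62.4% GC and those that passed downward at 36.8 to 43.8%.

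Promoters were described by the same measure. RefSeq promoter windows of 300 bases (GRCm38.p6) were matched for 28 of the 40 genes, 42 windows in all, of which 31 held the annotated transcript start. No window was matched for Cacng4, Gria1, Gria3, Grik1, Grin2a, Grin2b, Grin3a, Grm4, Grm5, Neto1, Shank1 and Shank2. The median GC content was 61.5% in the member windows and 52.7% over all 32851 windows. Gria2 and Grik2, which fell, had promoters of 65.7% and 64.7% GC, against 60.7% for Grin1 and 81.0% for Shank3, which rose. These 4 are shown because they carry both directions of the cocaine contrast, 5′ to 3′ on the strand of the gene. Capitals mark the GC box GGGCGG (read on both strands), the core of the Sp1 binding motif.
Grin1, chr2:25319138-25319437, minus strand: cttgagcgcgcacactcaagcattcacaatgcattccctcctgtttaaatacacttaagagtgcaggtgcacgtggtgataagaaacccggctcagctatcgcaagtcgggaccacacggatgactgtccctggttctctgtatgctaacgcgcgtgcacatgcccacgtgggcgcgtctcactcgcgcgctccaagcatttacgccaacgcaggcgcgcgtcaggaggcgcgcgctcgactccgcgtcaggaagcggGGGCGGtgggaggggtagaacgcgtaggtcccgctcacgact
Shank3, chr15:89499358-89499657, plus strand: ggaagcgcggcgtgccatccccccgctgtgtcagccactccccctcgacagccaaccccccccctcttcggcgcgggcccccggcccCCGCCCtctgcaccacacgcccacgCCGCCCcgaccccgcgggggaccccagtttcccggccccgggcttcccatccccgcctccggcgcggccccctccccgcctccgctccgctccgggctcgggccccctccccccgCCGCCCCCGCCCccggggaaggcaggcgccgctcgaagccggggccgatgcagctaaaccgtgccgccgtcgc
Gria2, chr3:80802786-80803085, minus strand: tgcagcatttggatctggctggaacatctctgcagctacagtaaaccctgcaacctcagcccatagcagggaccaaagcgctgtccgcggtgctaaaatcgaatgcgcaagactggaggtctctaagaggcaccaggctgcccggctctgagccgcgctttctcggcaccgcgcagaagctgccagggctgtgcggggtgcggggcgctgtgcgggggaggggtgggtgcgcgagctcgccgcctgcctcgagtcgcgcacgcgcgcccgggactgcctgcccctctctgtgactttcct
Grik2, chr10:49788705-49789004, minus strand: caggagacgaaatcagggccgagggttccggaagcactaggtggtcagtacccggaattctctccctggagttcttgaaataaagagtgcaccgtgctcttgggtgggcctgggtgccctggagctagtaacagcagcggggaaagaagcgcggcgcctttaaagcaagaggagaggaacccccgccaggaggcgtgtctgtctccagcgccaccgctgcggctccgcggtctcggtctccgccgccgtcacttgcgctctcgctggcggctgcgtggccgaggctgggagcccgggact

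The Grin1 window held 1 GC box and the Shank3 window 4, while those of Gria2 and Grik2 held none. The other genes called under the control label did not all follow this split. Dlg1, which fell, held 1, 2, 0 and 0 GC boxes in its windows, and Cacng2, which rose, held 0. Of the other genes that rose, Cacng7, Cnih3, Dlg3, Dlg4, Grik5, Grin2c and Homer2 had a window with a GC box. Over the matched genes, 22 of 42 windows (52.4%) held a GC box, beside 35.7% of all windows. The core of the cAMP response element, TGACG, was in 5 of the 42 (11.9%, beside 20.8% of all), and the full element TGACGTCA, which contains that core, was in 0 (1.79% of all). A match of letters is a description of the window and not evidence of binding.

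Under the cKO label, cocaine against saline rested on 2 cocaine libraries and gave mainly lower values: 3 of the 40 genes were higher and 8 lower (adjusted p under 0.05), beside 8.5% and 11.7% of all genes tested. The share that fell was thus above the background of lower genes. Without scaling the split was 0 higher and 28 lower, where 61.1% of all genes passed, with Shank1 and Grin2d negative. The median log2 fold change was -0.08 over the 40 genes and -0.0082 over all genes. With the log2 fold change minimum of 0.5, 2 members passed (Cacng3 upward and Neto2 downward), beside 3.07% of all genes. Without overlap between groups 8 were higher and 15 lower, beside 19.9% and 23.5% of all genes, so the share of members higher was close to the background. This contrast and the saline contrast below share the cKO saline libraries. Cell type markers that passed with it were Cldn5 and Kdr of endothelium (2 of 4, both lower), Calb2 (higher) and Rora (lower) of the thalamic list, Aldh1l1 (higher) and Slc1a2 (lower) of astrocytes, and Rsph1 of ependyma (higher), and their part was not tested.

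AMPA receptor subunits accounted for 3 of the 8 falls. Gria3 (chrX:41400854-41678601), an AMPA subunit encoded on the X chromosome, measured 23.1, 20.3, 20.4 and 19.9 scaled TPM after saline and 14.3 and 15.1 after cocaine, a fall of 29.0% (log2 fold change -0.49 ± 0.074, adjusted p = 0.0011). Gria4 (chr9:4417896-4796234), a subunit with fast kinetics, measured 30.7, 29.8, 28.3 and 27.1 after saline and 23.5 and 21.2 after cocaine (-0.37 ± 0.055, adjusted p = 0.0010). Gria2 fell by 0.30 on the log2 scale (SE 0.078, adjusted p = 0.019), and Gria1 measured 40.6, 44.0, 45.9 and 63.6 after saline and 43.2 and 43.9 after cocaine. Gria1, Gria2, Gria3 and Gria4 were all under the fold change minimum. Of the 24 other alternatives, Gria4 passed under all and Gria3 under all but the genotype tags.

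Other receptor genes that fell were Grm5 (-0.29 ± 0.058, adjusted p = 0.0046), Grik2 (-0.26 ± 0.074, adjusted p = 0.025) and Grin2b (-0.34 ± 0.11, adjusted p = 0.049), the NMDA subunit typical of immature and extrasynaptic receptors. Grm5 measured 16.6, 19.3, 19.1 and 18.6 scaled TPM after saline and 14.8 and 15.0 after cocaine, without overlap. Both Neto genes fell, Neto1 by 0.49 and Neto2 by 0.55 on the log2 scale (adjusted p = 0.033 and 0.028). Of the same 24 alternatives, the call was lost under 16 for Grin2b, and for Grin2d, among the rises, under 13 with a change of sign under 1 more. The 3 rises were Cacng3 (0.66 ± 0.16, adjusted p = 0.013), the gamma-3 TARP, Grin2d (0.35 ± 0.11, adjusted p = 0.043) and Shank1 (0.29 ± 0.082, adjusted p = 0.028). Cacng3 (chr7:122670492-122769393) measured 5.81, 7.39, 8.31 and 6.73 after saline and 12.3 and 10.4 after cocaine, and Shank1 92.0, 93.0, 91.9 and 88.3 against 104.1 and 119.1. Without cKO cocaine replicate 1 the contrast gave 5 members (Shank1 higher and Gria2, Gria3, Gria4 and Grm5 lower), beside 13.7% of all genes, and without replicate 2 it gave 3 (Gria3, Gria4 and Grm5, all lower), beside 5.75%. The call of Grik2 was also lost without cKO saline replicate 3, those of Neto1 and Shank1 without replicate 4 and that of Neto2 without replicate 1 or 2. With the GC content and length trends removed, 0 were higher and 3 lower (Gria3, Gria4 and Dlg3), close to the 8.88% of all genes that passed. Cacng3 was then at 0.55 (adjusted p = 0.059), and the correlation with GC content over the 40 genes was 0.673 (Spearman 0.697).

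**Figure D5:**
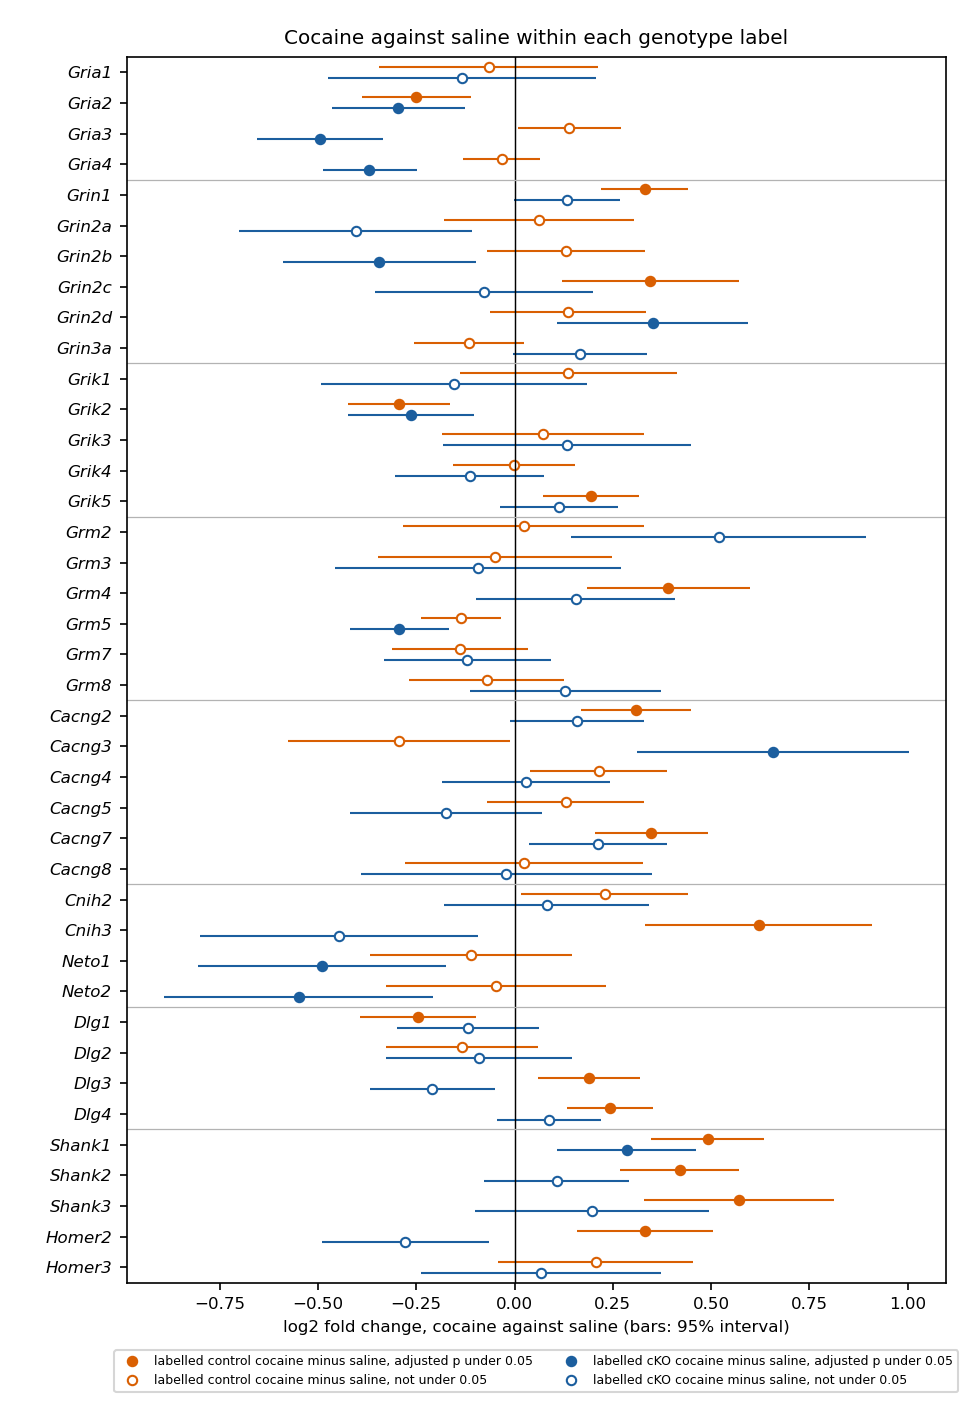
Log2 fold change of cocaine against saline with its 95% interval for the 40 genes, under the control label (orange) and the cKO label (blue), filled where the adjusted p is under 0.05. Gria2 and Grik2 are filled below 0 and Shank1 above 0 for both labels, while Gria3, Cacng3, Cnih3 and Homer2 lie on opposite sides of 0.

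The mean of both cocaine contrasts, which shares its libraries with both, gave 10 higher and 8 lower members, beside 15.8% and 16.5% of all genes, so the share that rose was above the background and the share that fell was close to it. None of the 40 passed with the fold change minimum of 0.5 (2.06% of all genes did), and 19 had an unadjusted p under 0.05. Shank1 (0.39 ± 0.053, adjusted p = 0.00017), Shank2 (0.26 ± 0.055), Shank3 (0.38 ± 0.089), Grin1 (0.23 ± 0.040), Dlg4 (0.17 ± 0.040), Cacng2 (0.23 ± 0.051), Cacng7 (0.28 ± 0.052), Grm4 (0.27 ± 0.076), Grik5 (0.15 ± 0.045) and Grin2d (0.24 ± 0.073) rose. Of the rises under the control label, Cnih3 (0.087), Homer2 (0.027), Grin2c (0.13) and Dlg3 (-0.01) did not pass in the mean. The falls were in Gria2 (-0.27 ± 0.051), Gria3 (-0.18 ± 0.048), Gria4 (-0.20 ± 0.036), Grik2 (-0.28 ± 0.048, adjusted p = 0.00083), Grm5 (-0.21 ± 0.037), Neto1 (-0.30 ± 0.094), Neto2 (-0.30 ± 0.10) and Dlg1 (-0.18 ± 0.054). Without scaling 0 were higher and 30 lower, where 80% of all genes passed. With scaling, 3 of 4 AMPA pore subunits were lower while 3 of 3 Shank scaffolds were higher. Without cKO cocaine replicate 2, 5 were higher and 5 lower, where 20.8% of all genes passed. With the GC content and length trends removed 6 remained higher (Grin1, Cacng2, Cacng7, Dlg4, Shank1 and Shank2) and 1 lower (Gria4), where 19.8% of all genes passed. The Neto2 call was lost under 13 of 23 alternatives other than the fold change minimum, 10 of them removals of a single library.

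After saline, cKO against control changed 1 of the 40 genes. Gria3 was 16.6, 14.2, 16.4 and 15.3 scaled TPM in control saline against the cKO saline values given above, higher by 33.0% in cKO (log2 fold change 0.41 ± 0.061, adjusted p = 0.017). None was lower, and the shares over all genes were 0.0594% higher and 0.0965% lower. No member passed with the fold change minimum (0.0445% of all genes), and 14 had an unadjusted p under 0.05. The sign was positive for 32 of 40 members, with a median of 0.11 against 0.0087 over all genes, and 53.2% of all genes were positive. The next members by unadjusted p were Cnih3 (0.54 ± 0.13, adjusted p = 0.099) and Gria4 (0.17 ± 0.045, adjusted p = 0.11). The Gria3 call was lost without cKO saline replicate 1, the highest library. With the GC content and length trends removed it also missed the threshold, at 0.36 (adjusted p = 0.064). Grouped by the genotype tags, the Gria3 log2 fold change was -0.03. Each saline group made by the tags mixes libraries of high and low Maged1, so this value does not test the difference between the titles. Oligodendrocyte marker sums were 1509 to 2126 in cKO saline against 1232 to 1464 in control saline, with 5 of 5 genes higher by an unadjusted p under 0.05 and 0 by the adjusted p (limma), and of the hypothalamic markers Oxt was lower. By an unadjusted p under 0.05, 4 of 4 tested choroid plexus and ependyma markers were lower (median -0.79), as were 2 of 5 habenula markers (median of the 5, -1.22), with 0 by the adjusted p (limma). Their part in the Gria3 difference was not tested.

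After cocaine, no member differed between the libraries labelled cKO and control (limma, 0 of 40 by adjusted p, 6 by an unadjusted p under 0.05), beside 0.0148% of all genes higher, 0.0371% lower and 0.0297% past the fold change minimum. The smallest unadjusted p were those of Homer2 (-0.40 ± 0.098, adjusted p = 0.19) and Cacng3 (0.59 ± 0.16, adjusted p = 0.22).

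The difference between the cocaine contrasts of the genotype labels (the interaction) passed for 5 members, 1 higher and 4 lower under the cKO label, beside 0.542% and 0.735% of all genes. With the fold change minimum 4 passed, beside 0.824% of all genes. Cnih3 differed most (-1.07 ± 0.21, adjusted p = 0.037): it was 14.8, 13.8, 12.5 and 15.5 scaled TPM in cKO saline against 8.94 and 11.7 with cocaine, and so lower with cocaine there and higher with cocaine under the control label. Gria3 gave -0.63 ± 0.096 (adjusted p = 0.012) and Gria4 -0.34 ± 0.071 (adjusted p = 0.045). Gria4 measured 25.7, 24.6, 26.3 and 26.1 in control saline and 25.6, 24.7, 25.0 and 25.1 in the libraries labelled control cocaine. Homer2 gave -0.61 ± 0.13 (adjusted p = 0.044), with 9.26, 10.0, 9.65 and 9.26 in cKO saline against 7.77 and 7.78 with cocaine. Cacng3 was the only one with a positive value (0.95 ± 0.21, adjusted p = 0.047), with 6.73, 10.1, 10.6 and 9.48 in control saline and 7.38, 7.44, 7.89 and 6.68 in the libraries labelled control cocaine. All 5 calls were lost without cKO cocaine replicate 1, and 1 (Gria3) remained without replicate 2. Of the 14 removals of a single library, Cnih3 lost its call in 9, Homer2 in 10, Cacng3 in 11 and Gria4 in 12. Of the hypothalamic markers 4 of 6 (Oxt, Gal, Trh and Avp) also passed this contrast, and their part was not tested.

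A further 51 genes of glutamate receptors, their auxiliary proteins and the postsynaptic density were listed, of which 49 were tested. Under the control label 15 rose and 2 fell, under the cKO label 3 rose and 7 fell, and in the mean 12 rose and 6 fell, with 0 in both genotype comparisons by adjusted p (16 after saline and 12 after cocaine by an unadjusted p under 0.05). Beside the shares over all genes (13.3% and 10.3%, 8.5% and 11.7%, 15.8% and 16.5%), the falls under the control label and the rises under the cKO label were under the background. Prrt1, which encodes an AMPA receptor-associated membrane protein, rose under both labels (0.86 ± 0.075 and 0.93 ± 0.092, adjusted p = 3.3e-05 and 0.00014). Dlgap4, encoding a protein that links PSD-95 to Shank, rose under the control label (0.52 ± 0.079, adjusted p = 0.00088). Nlgn1, encoding the adhesion protein neuroligin 1 of excitatory synapses, fell under both (-0.20 ± 0.067 and -0.48 ± 0.082, adjusted p = 0.049 and 0.0023). In the mean, Prrt1 gave 0.90 ± 0.059 and Nlgn1 -0.34 ± 0.053. The interaction passed for 1 gene upward and 4 downward, led by Nptxr (1.63 ± 0.31, adjusted p = 0.034), a receptor for AMPA-clustering pentraxins, and Frrs1l (-0.44 ± 0.091, adjusted p = 0.043), an assembly factor of AMPA receptors.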

How the data were processed

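Thalamic RNA was depleted of ribosomal RNA and sequenced as stranded paired-end reads. According to the methods of the study, the authors mapped reads to GRCm38.p4 with STAR 2.5.3a and obtained TPM from salmon quantifications through tximport. The deposited TPM tables, 1 per library, are corrected for transcript length and library total and hold no depth. In 2 of them the deposited values have decimal commas (unit recorded as other), read here as points. Groups follow the sample titles.

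Libraries were made comparable with TMM factors, computed without weights after trimming 30% of log ratios and 5% of mean values on each side, and 0.5 was added before log2, which understates changes of low genes. Genes that reached 1 TPM in 3 or more libraries entered limma 3.58.1 (R 4.3.3, intensity trend) with a means model of 4 groups and 6 contrasts. Calls needed an adjusted p under 0.05. P-values weigh a difference between groups against the spread between the libraries within groups. The methods of the study call the samples independent, and a part of that spread may be technical. GC content, length and coordinates came from GENCODE M21 (GRCm38), with a value for all 40 members and 97.9% of tested genes. Tested on simulated data for the control cocaine contrast, the fit called 193 of 200 genes given a log2 change of 1, among 13325, with 12 false calls. That change was larger than any of the 40 genes showed in this contrast (highest 0.62). The simulated noise was independent between genes and held no GC content trend, so recovery of smaller changes under such a trend was not tested.

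Values are given for every library for the up to 4 members of smallest adjusted p per comparison and the highest member of each role, with Gria2 and Shank3 added after their values were seen. The members, lists and rules were chosen with earlier results of these data known. Alternatives were other scaling, pseudocounts, filters and fits, a replicate block, the genotype tags, a fold minimum, GC content and length correction and each library left out. Figures used matplotlib 3.10.9 in Python 3.11.15.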

Additional observations from a re-analysis of the deposited data

Results flagged for a closer look

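Among 120 sets of 4 libraries (40 genes in 3 groups), 7 (5.83%) held a library far from the other 3 by Dixon's criterion, and chance gives about 1 in 20. Of these, 3 were in control cocaine replicate 4: Shank1 at 138.7 scaled TPM (others 112.4 to 114.8), Grm4 at 41.3 (30.2 to 31.7) and Grm7 at 19.1 (14.9 to 15.6). That library had the highest pan-neuronal (1217) and thalamic (618.2) marker sums of all libraries and the lowest habenula sum (5.2). The part of tissue composition in its values was not tested. Control saline replicate 2 was low for Shank3, at 47.1 (57.1 to 59.0), and for Grm2, at 17.3 (18.3 to 18.5). Gria1 was high in control cocaine replicate 1, at 61.5 (43.9 to 46.2), and Cacng8, a TARP of hippocampal synapses, was high in cKO saline replicate 4, at 24.4 (14.03 to 14.6). These last 2 libraries had the highest cortex and hippocampus marker sums, and the part of neighbouring tissue in both values was not tested.

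The cocaine effect differed between the genotype labels by the interaction test for Gria3 (-0.63), Gria4 (-0.34), Cacng3 (0.95), Cnih3 (-1.07) and Homer2 (-0.61), on the log2 scale. Maged1 gave an interaction of 2.26 in the same fit, since it was low in the libraries labelled control cocaine and high in those labelled cKO cocaine. Unlike the mean, the interaction does not keep its value if the cocaine groups exchange their labels. If the labels are exchanged, the 5 values are instead differences of control minus cKO, summed over both treatments. Whether the cocaine effect differs by genotype, and in which direction, can therefore not be read from them.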

How the results depend on the processing

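Median-of-ratios scaling and pseudocounts of 0.1 and 1 gave the same members in all 6 comparisons. Without scaling, 22 members were lower and 0 higher under the control label, 28 and 0 under the cKO label and 30 and 0 in the mean (13 higher and 3 lower, 3 and 8, and 10 and 8 with scaling), and 0 differed after saline and 1 in the interaction. The log2 fold changes that turned negative without scaling were, under the control label, Grin1 (-0.0358), Grin2c (-0.0097), Grik5 (-0.17), Cacng2 (-0.0491), Cacng7 (-0.0165), Dlg3 (-0.17), Dlg4 (-0.12) and Homer2 (-0.0179), under the cKO label Grin2d (-0.0081) and Shank1 (-0.0848), and in the mean Grin1 (-0.14), Grin2d (-0.11), Grik5 (-0.21), Grm4 (-0.0912), Cacng2 (-0.13), Cacng7 (-0.0863), Dlg4 (-0.20) and Shank2 (-0.10). The median of all genes moved by the shift given in the report.

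With the fold minimum, the control, cKO, saline and mean comparisons gave 2, 2, 0 and 0 members. With GC content and length trends removed, the control, cKO, saline, interaction and mean comparisons gave 10, 3, 0, 2 and 7. With the genotype tags the control contrast gave 7 higher and 6 lower (Cacng2, Cacng7, Cnih3, Homer2, Grin2c and Dlg3 lost their calls), the cKO contrast gave 4, and the saline comparison and the interaction 0, with Gria3 after saline at -0.0264. Maged1 followed the titles, so both saline groups made by the tags mix libraries of high and low Maged1. A call lost under the tags therefore says little about a difference by genotype. Without the low-value filter the interaction gave 3. Leaving out 1 library gave 13 to 17 members for the control contrast, 3 to 14 for cKO, 0 to 1 for saline, 0 to 5 for the interaction and 10 to 20 for the mean. The cause was not tested. Removing both libraries highest in cortex and hippocampus markers, chosen after seeing the data, gave 14 higher and 3 lower under the control label.

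Libraries with the same replicate number did not deviate together over all genes (mean correlation -0.0139 over 18 pairs, from -0.166 to 0.103, and 0.0046 over 54 pairs of different numbers). A batch that moves only a part of the genes could be missed by this check. With a replicate block, the control contrast gave 13 higher and 3 lower, cKO 4 and 5, the mean 11 and 8, and the saline comparison and the interaction 0.

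The TPM hold no depth, the cKO cocaine group has 2 libraries, and the genotype of the cocaine libraries rests on labels that Maged1 goes against. The low number of libraries limits the precision of each fold change, and the scaling that separates saline from cocaine libraries sets the direction of many.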
